A study of Drosophila melanogaster with 3 samples.

Results

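The nuclear genes of the mitochondrial respiratory chain were examined for binding of Caupolican, a homeodomain protein of the Iroquois complex, in Drosophila melanogaster embryos. The members were all nuclear protein-coding genes of the Ensembl annotation of assembly dm6 with symbols starting ND-, COX, ATPsyn, UQCR or Sdh, which gave 88 of 13945 protein-coding genes. Binding had been mapped by chromatin immunoprecipitation and sequencing (ChIP-seq) with an antibody to GFP in whole embryos of mixed sex, 0 to 24 h old, of 1 transgenic line that expresses caup with eGFP fused to its C-terminus. There was 1 group of 3 biological replicates, so no treatment or genotype was compared. Every value is a peak call from a whole organism: many weakly bound cells and few strongly bound cells cannot be told apart, nor can embryos of different ages.

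The respiratory chain of the inner mitochondrial membrane passes electrons from NADH through complex I, or from succinate through complex II, to ubiquinone, then through complex III and cytochrome c to complex IV, which reduces oxygen. Complexes I, III and IV pump protons, and complex V, the ATP synthase, uses the gradient to make ATP. Most subunits are encoded in the nucleus, where their genes are active in nearly all tissues. In Drosophila several of these genes have duplicates used mainly in the testis, and many such duplicates carry the parent's symbol with an L added. Iroquois proteins are known for patterning the dorsal head, the thorax and the wing.

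A summit, the position of highest signal within a peak, was given to the gene with the nearest transcription start site (TSS) within 1 kb. The optimal set, the 6056 peaks kept by the authors' test of reproducibility, matched region for region the top 6056, by signal value, of the pooled-replicate list. The signal value is the authors' enrichment statistic, whose scale is not given in the sources used here. Signal values were therefore compared only within a list, and ranks (1 is the highest) were set side by side between lists. In all, 61.1% of optimal peaks had their summit no more than 1 kb from a TSS, and the signal value at rank 6056 was 76.9 in replicate 1, 54.0 in replicate 2 and 90.1 in replicate 3. The lists hold no read counts, and library depth is therefore unknown.

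The promoters of the members with the highest signal values in complexes I, IV and V are given here with the sequence around the strongest peak near any member, because the results turn on which gene such a summit belongs to. They come from the RefSeq sequence of assembly dm6, read 5′ to 3′ on the strand of the gene, from at most 250 bases before the TSS to 30 bases from it. Capitals mark matches on either strand to the motifs searched in the promoters. The CAGCTG of ND-51 starts 44 bases before its TSS, that of ATPsynCF6 98 bases before, and the GAGAG match of COX6B, read here on the opposite strand, 26 bases before. The sequence given for ATPsynE, which is set on the TSS nearest to its summit, held no match. Its searched promoter, set on a TSS farther downstream with more transcripts, held TATCGATA, ACANNTGT and CAGCTG.
ND-51 (complex I), chr2L:6062728-6063007, minus strand: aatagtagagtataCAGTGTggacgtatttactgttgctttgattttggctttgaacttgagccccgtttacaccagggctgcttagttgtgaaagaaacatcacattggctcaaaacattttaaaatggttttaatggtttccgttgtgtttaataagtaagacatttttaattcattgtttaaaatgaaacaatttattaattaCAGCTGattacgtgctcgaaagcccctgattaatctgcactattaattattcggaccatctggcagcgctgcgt
COX6B (complex IV), chrX:19744306-19744459, minus strand: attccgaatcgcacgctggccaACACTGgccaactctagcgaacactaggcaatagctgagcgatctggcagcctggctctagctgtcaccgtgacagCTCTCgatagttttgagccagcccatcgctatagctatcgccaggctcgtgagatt
ATPsynE (complex V), chr3R:14326697-14326976, plus strand: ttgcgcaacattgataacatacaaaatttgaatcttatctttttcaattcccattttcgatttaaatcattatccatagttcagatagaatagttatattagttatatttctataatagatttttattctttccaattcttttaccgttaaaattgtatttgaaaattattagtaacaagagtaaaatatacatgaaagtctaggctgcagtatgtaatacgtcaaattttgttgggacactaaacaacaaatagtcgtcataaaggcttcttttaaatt
ATPsynCF6 (complex V), chr3R:23356035-23356306, minus strand: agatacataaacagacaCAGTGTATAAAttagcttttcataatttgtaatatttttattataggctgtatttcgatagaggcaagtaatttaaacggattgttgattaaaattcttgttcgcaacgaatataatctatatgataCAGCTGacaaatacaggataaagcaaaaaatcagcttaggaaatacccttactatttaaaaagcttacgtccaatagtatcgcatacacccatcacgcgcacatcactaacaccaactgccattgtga
Between ND-ASHI and Fum1, chrX:6679285-6679485, plus strand, 100 bases to each side of the summit: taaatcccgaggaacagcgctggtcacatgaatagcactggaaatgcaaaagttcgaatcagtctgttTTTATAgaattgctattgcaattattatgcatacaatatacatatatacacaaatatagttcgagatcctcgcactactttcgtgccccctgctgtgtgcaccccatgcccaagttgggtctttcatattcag

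Of the 88 members, 22 had a promoter summit (25.0%, Wilson 95% interval 17.1 to 35.0), against 20.5% of all protein-coding genes, so the members as a whole stood near the background. The members differed among themselves. Among single-copy genes and parents of duplicates, complex V had a promoter summit at 8 of 11 genes (72.7%, 43.4 to 90.3), complex IV at 3 of 8 (37.5%, 13.7 to 69.4), complex I at 9 of 34 (26.5%, 14.6 to 43.1), complex III at 1 of 6 (16.7%, 3.01 to 56.4) and complex II at 0 of 4 (up to 49.0%). The 17 paralogues with symbols ending in L had 0 (up to 18.4%). The intervals cover counting error only, genes are not replicates, and the differences between complexes were not tested.

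ND-MNLL was counted with complex I although its symbol ends in L, since those letters are the name of the subunit itself. That choice was made after its summit had been seen; with ND-MNLL counted apart, complex I had 8 of 33 (24.2%).

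**Figure D1:**
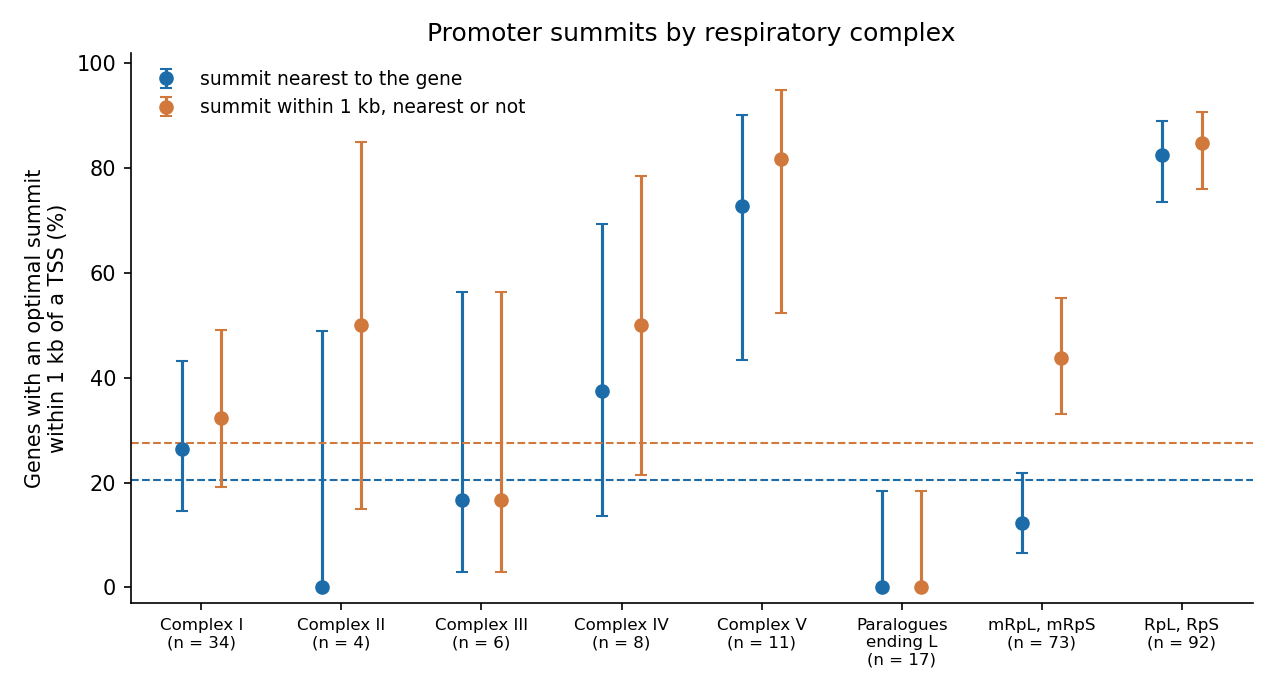
Share of genes (y axis, %) with an optimal summit within 1 kb of a TSS, by complex and gene class (x axis); points are shares, bars are Wilson 95% intervals, and dashed lines are the shares of all protein-coding genes under the same rule. Complex V stood at 72.7% by the nearest-TSS rule (blue), the paralogues ending in L stood at 0 under both rules, and the mitochondrial ribosomal protein genes moved from 12.3% to 43.8% when the summit did not have to be nearest.

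Complex V, the ATP synthase as far as the symbol rule covers it, had the largest share of the complexes, but its summits were mostly weak. Its 8 genes span both parts of the enzyme: ATPsynbeta, the catalytic subunit, ATPsyngamma of the central stalk, ATPsynC of the proton-carrying ring, ATPsynB, ATPsynO and ATPsynCF6 of the peripheral stalk, and ATPsynE and ATPsynF, small membrane subunits. Their signal values in the optimal set ran from 231 to 407 with a median of 271, at ranks 2154 to 5244. All protein-coding genes with a promoter summit had a median signal value of 376. The alpha subunit of the enzyme, blw, lies outside the rule and had 443 at rank 1869, while sun, also outside it, had no promoter summit. When only the 3028 peaks of highest signal value were used, complex V kept 2 of 11 genes (18.2%, against 12.2% of all protein-coding genes) and complex I kept 6 of 34 (17.6%). The lead of complex V over complex I therefore lay in the weaker part of the optimal set.

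ATPsynE (FBgn0038224) had the highest signal value among the members of complex V, 407 at rank 2154. Its peak lay on 3R from 14326898 to 14327015 with the summit 29 bp downstream of a TSS, in the 5′ UTR. The region over this summit had a signal value of 103 in replicate 1, 110 in replicate 2 and 189 in replicate 3, at ranks 3848, 2043 and 1896. All 3 ranks lay inside the top 6056, with replicate 1 the lowest.

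ATPsynCF6 (FBgn0016119, signal value 345, rank 2857) ranked 1889, 4071 and 4170 in replicates 1 to 3, and ATPsynbeta (FBgn0010217, 298, rank 3604) ranked 2380, 4392 and 4056. ATPsynB (FBgn0019644, 281, rank 3934) ranked 4090, 2935 and 5558. These 3 genes lay inside the top 6056 of every replicate, and replicate 1 placed ATPsynCF6 and ATPsynbeta higher than the other replicates did. The summit of ATPsynbeta, on chromosome 4, was the only member summit in a coding exon, 84 bp downstream of the TSS.

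ATPsynC, ATPsynO and ATPsynF missed the top regions of at least 1 replicate. ATPsynC (signal value 262, rank 4413) ranked 2857, 8828 and 3616, so replicate 2 fell outside. ATPsynO (253, rank 4640) ranked 3797, 4125 and 6333, so replicate 3 fell just outside. ATPsynF, the lowest of all members at signal value 231 and rank 5244, ranked 3947, 7338 and 6689, and only replicate 1 placed it inside. ATPsyngamma (247, rank 4787) ranked 5809, 4230 and 4183, all inside. Requiring the top regions of all 3 replicates left complex V with 5 of 11 genes, and requiring those of the other 2 when replicate 1, 2 or 3 was left out gave 5, 6 and 6. Such a requirement can only lower a count, and the share of all protein-coding genes fell with it, to 15.8%, 16.1% and 15.8%.

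The remaining members of complex V, paralogues apart, were ATPsynD, a peripheral stalk subunit, ATPsynG, a membrane subunit, and ATPsyndelta of the central stalk. ATPsynD lay 780 bp from a summit of rank 3157 that was 50 bp from cdi, a protein kinase gene. ATPsynG had a region in replicate 2 only, at rank 12275, and ATPsyndelta had none in any list.

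In complex I, ND-51 (FBgn0031771), the flavin-binding subunit that accepts electrons from NADH, had the highest signal value of all members, 671 at rank 902, above the 85th percentile of optimal peaks. Its peak lay on 2L from 6062818 to 6062972, with the summit 114 bp upstream of the TSS in intergenic sequence. The signal values were 218, 177 and 273 in replicates 1 to 3, at ranks 975, 879 and 1015. The ranks differed little between replicates.

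ND-24 (FBgn0030853), a core subunit with an iron-sulphur cluster, followed with 554 at rank 1293, with the summit 84 bp downstream of the TSS in the 5′ UTR. It ranked 1501, 778 and 2393, highest in replicate 2. ND-42 (FBgn0019957), an accessory subunit, had 507 at rank 1501, and its summit lay 84 bp upstream. It ranked 1132 in replicate 2 and 1482 in replicate 3, while in replicate 1 no region held the summit; the nearest region there, 9 bp away, had rank 1584.

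The accessory subunits ND-B22 (448, rank 1831) and ND-13B (430, rank 1958) ranked 1095, 2494 and 3065, and 1301, 2679 and 2776. Both stood highest in replicate 1. ND-SGDH (338, rank 2954) ranked 7234, 1721 and 3341, so replicate 1 fell outside the top 6056. ND-15 was the lowest of the complex (237, rank 5063) and ranked 4555, 7356 and 4789, with replicate 2 outside. ND-MNLL (318, rank 3249) and ND-B18 (307, rank 3429) lay inside in all 3 replicates. The 9 summits of complex I had a median signal value of 430, against 463 for the 3 of complex IV and 271 for the 8 of complex V.

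The other 25 complex I genes had no promoter summit. ND-13A, ND-20, ND-23, ND-30, ND-39, ND-75, ND-ACP, ND-AGGG, ND-ASHI, ND-B14.5A, ND-B14.5B, ND-B14.7, ND-B16.6, ND-B17, ND-MLRQ and ND-MWFE had a region in at least 1 of the full replicate lists. ND-18, ND-19, ND-49, ND-B12, ND-B14, ND-B15, ND-B17.2, ND-B8 and ND-PDSW had none in any. These last are 9 of the 34 complex I genes (26.5%), against 39.0% of all protein-coding genes with no region in any list. Of the core subunits, ND-51 and ND-24 had a summit, and ND-75, ND-49, ND-30, ND-23 and ND-20 did not. The core subunits are few, and complex I as a whole had a promoter summit at 26.5% of its genes, against 20.5% of all protein-coding genes.

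Complex IV, cytochrome c oxidase, had summits at COX6B, COX5A and COX7B. COX6B (FBgn0031066), a subunit on the intermembrane side, had 624 at rank 1033, with its peak on X from 19744275 to 19744500 and the summit 44 bp upstream of the TSS. The signal values were 249, 160 and 203 at ranks 750, 1048 and 1699. COX5A (FBgn0019624) had 463 at rank 1747 and ranked 1147, 1743 and 3002. COX7B (FBgn0040793) had 349 at rank 2804 and ranked 2871, 4687 and 3113. All 3 genes lay inside the top regions of every replicate. COX4, COX5B, COX7A, COX7C and COX8 had no promoter summit.

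COX8, a small membrane subunit, was placed differently by the replicates. It had a region at rank 4553 in replicate 1 and 1716 in replicate 2, both inside the top 6056, and none given to it in replicate 3 or in the pooled list.

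Complex III had a promoter summit at 1 of 6 genes (16.7%) and complex II at 0 of 4, against 20.5% of all protein-coding genes. With so few genes, neither share can be told from that background. In complex III, UQCR-14 (FBgn0030733) had the single summit, with 239 at rank 5020, 18 bp downstream of the TSS. The region over this summit ranked 5207, 3828 and 8889, so replicate 3 fell outside, though another region given to the gene ranked 5425 there. UQCR-C1 and UQCR-C2, the core proteins, had none, nor had UQCR-11, UQCR-6.4 and UQCR-Q. All 6 genes had a region in at least 1 full replicate list, against 61.0% of all protein-coding genes. In complex II, the flavoprotein SdhA, the iron-sulphur subunit SdhB and the membrane anchors SdhC and SdhD had no promoter summit. Each had a region in at least 2 of the full replicate lists, and the single assembly factor, Sdhaf3, had a region in 2. Of all protein-coding genes, 12.5% had a region in exactly 2 lists and 33.2% in all 3.

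Among the 66 members without a promoter summit, the highest ranks in a replicate list belonged to ND-ASHI (141 in replicate 2), COX8 (1716 in replicate 2), UQCR-Q (3722 in replicate 3), SdhC (4469 in replicate 3) and ND-B14.5A (6213 in replicate 1). In the pooled list the members just outside the optimal set were ND-ASHI at rank 6718, UQCR-Q at 6890 and ND-B14.5A at 6975. For ND-ASHI this is a different region from that ranked 141 in replicate 2, whose peak had rank 138 in the optimal set and was given to Fum1. Those just inside were ATPsynF at 5244, ND-15 at 5063 and UQCR-14 at 5020.

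**Figure D2:**
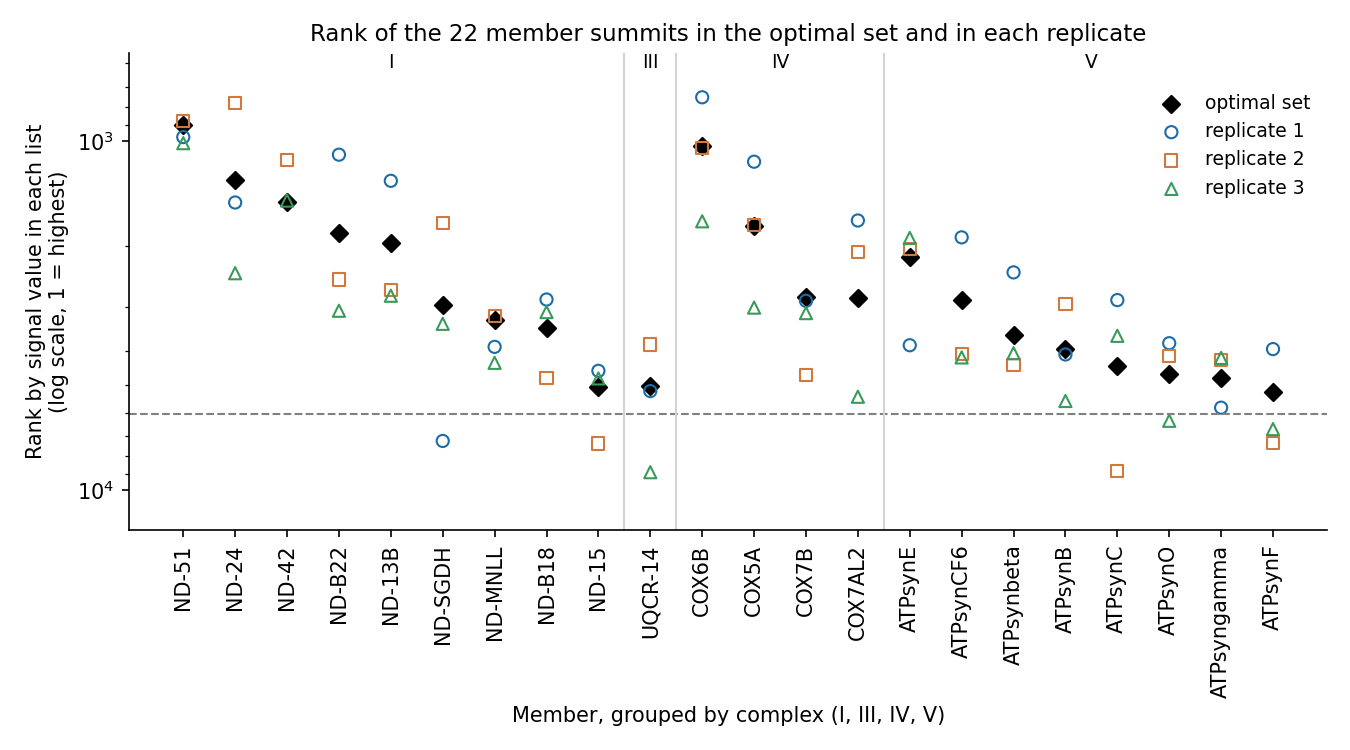
Rank by signal value (y axis, log scale, 1 is the highest) of the region over each of the 22 member summits (x axis, grouped by complex) in the optimal set (filled diamonds) and in replicates 1 to 3 (open symbols); the dashed line is rank 6056. Complex V lies between 2154 and 5244 in the optimal set, ND-51 stays between 879 and 1015 in the replicates, and ND-42 has no point for replicate 1.

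Replicate support of the members was like that of all genes with a promoter summit. Of the 22 summits, 20 lay in the top regions of replicate 1, 19 in those of replicate 2 and 19 in those of replicate 3. In all, 15 (68.2%, Wilson interval 47.3 to 83.6) lay in the top regions of all 3 replicates, against 69.3% of all 2858 protein-coding genes with a summit. Set against all genes, these are 15 of the 88 members, beside 14.2% of protein-coding genes. The optimal set was made from these replicates, so agreement is built into it.

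The summits sat close to the TSS. Of the 22, 19 (86.4%) lay within 100 bp, against 48.8% of all protein-coding genes with a summit and 98.7% of the 76 genes with a summit among RpL and RpS genes, which encode the cytoplasmic ribosome. The median distance was 37.5 bp, against 105 bp for all protein-coding genes with a summit. Upstream of the nearest TSS lay 16 of the 22 (72.7%), near the 71.6% of all genes. The side holds for that TSS only. Among the 16, the summits of ND-B18, ND-B22, COX5A, ATPsynC and ATPsyngamma lay in a 5′ UTR of the same gene. All 8 summits of complex V and 8 of 9 of complex I lay within 100 bp. By the annotation 10 summits fell in a 5′ UTR, 10 between genes, 1 in a coding exon and 1 in an intron.

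**Figure D3:**
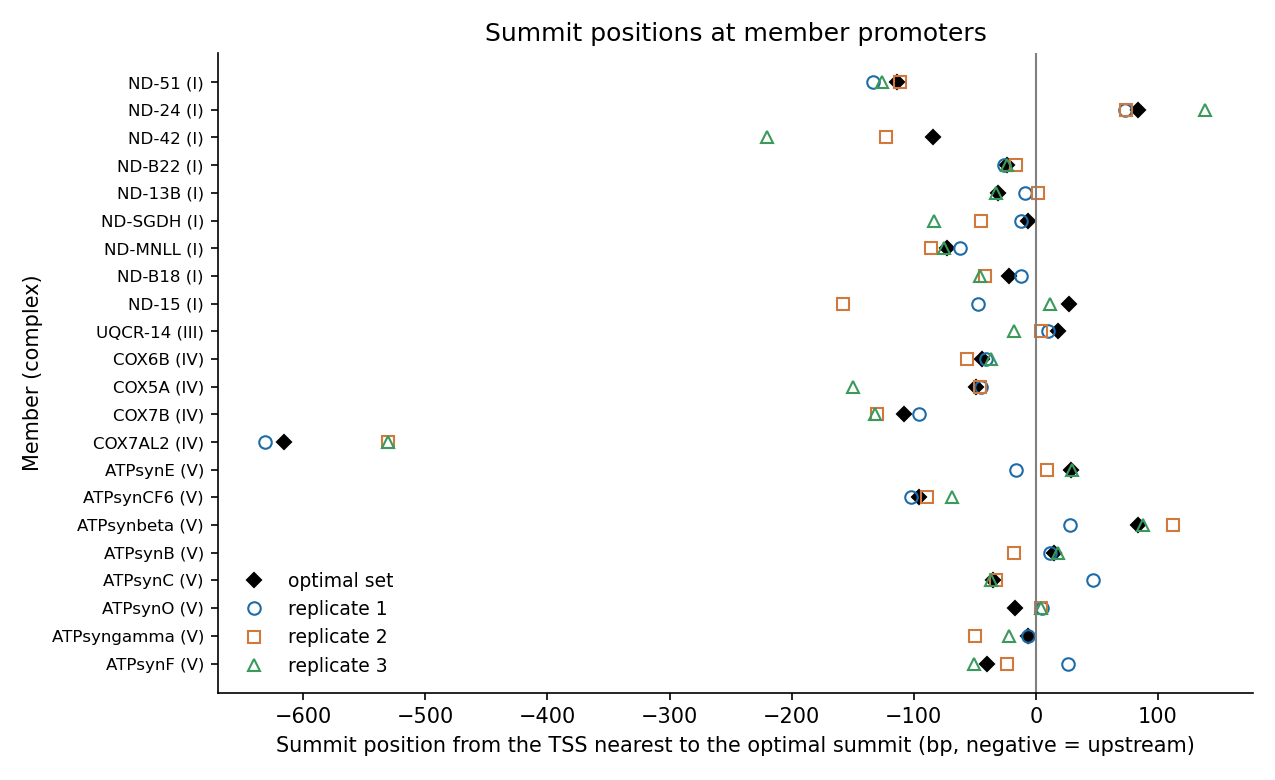
Position of the 22 member summits (x axis, bp from the TSS nearest to the optimal summit, negative is upstream) in the optimal set (filled diamonds) and in replicates 1 to 3 (open symbols), by member (y axis). The summits cluster around the TSS, 19 of 22 within 100 bp in the optimal set, and COX7AL2 stands apart at 616 bp upstream.

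Many members share their promoter region with a gene on the opposite strand, and there the nearest TSS decided the count. Of the 88 members, 45 (51.1%) had a TSS of another gene on the opposite strand within 1 kb upstream of their own, against 37.4% of all protein-coding genes; in complex I it was 23 of 34 (67.6%) and in complex V 8 of 11 (72.7%). Of the 22 members with a summit, 16 were also nearest to the summit of the region in each of the 3 replicates. The other 6 were ND-15, ND-42, ND-51, COX5A, COX6B and COX7B. By complex, 8 of 8 in complex V, 6 of 9 in complex I and 0 of 3 in complex IV were nearest in all 3 replicates.

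ND-51 and CG13994 show how narrow the choice was. The optimal summit lay 114 bp from ND-51 and 118 bp from CG13994, and in replicates 1 and 3 the summit was nearer to CG13994. ND-42 pairs with Cchl, cytochrome c haem lyase, which attaches haem to cytochrome c. The optimal summit was 84 bp from ND-42 and 145 bp from Cchl, but the replicate summits were nearer to Cchl, at 106 bp in replicate 2 and 9 bp in replicate 3. The partner of COX5A was glo, an RNA-binding protein gene, that of COX7B was Sec3 of the exocyst, and that of ND-15 was Pus10, a pseudouridine synthase gene. COX6B and CG18809 have a TSS at the same position, as do ND-MNLL and CG45089, so these summits cannot be assigned to a single gene of the pair. CG33932 and Rpp20 start on the opposite strand 52 bp from the summit of COX6B, and in replicate 2 the summit was nearer to them, at 40 bp against 56 bp for COX6B.

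When a summit counted for every gene with a TSS within 1 kb, 28 members had one (31.8%, Wilson interval 23.02 to 42.13), against 27.6% of protein-coding genes. The 6 added were ND-ASHI, ND-MWFE, SdhA, SdhC, COX5B and ATPsynD. ND-ASHI, an accessory subunit of complex I, lay next to the strongest of these peaks, whose sequence is shown above. It had a signal value of 1720 at rank 138, on X from 6679189 to 6679548, and signal values of 675, 440 and 624 at ranks 98, 141 and 198 in replicates 1 to 3. Its summit lay 267 bp from ND-ASHI and 255 bp from Fum1, the fumarase of the tricarboxylic acid cycle, in an intron of a longer Fum1 transcript. In replicate 1 it was nearer to Fum1, at 258 against 264 bp, and in replicates 2 and 3 to ND-ASHI, at 248 and 259 bp.

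ND-MWFE lay 171 bp from a summit of rank 886 that was 50 bp from TppII, a peptidase gene, and COX5B lay 249 bp from one of rank 1816 that was 49 bp from IFT52, of intraflagellar transport. SdhC lay 332 bp from a summit of rank 4796 that was 66 bp from Tctp, and SdhA lay 844 bp from one of rank 3265 that was 43 bp from cer. With these, complex II had 2 of 4 genes (50%, 15.0 to 85.0) and complex V 9 of 11 (81.8%).

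Paralogues ending in L had fewer summits and fewer listed regions than their parents, a difference that was not tested. The 17 are ND-20L, ND-24L, ND-49L, ND-B14.5AL, SdhAL, SdhBL, SdhCL, UQCR-11L, UQCR-14L, UQCR-6.4L, COX4L, COX5BL, COX7AL, COX7CL, ATPsynCF6L, ATPsynGL and ATPsynbetaL. None had an optimal summit within 1 kb under either rule, while 4 of their 17 parents (23.5%, 9.56 to 47.3) did, namely ND-24, UQCR-14, ATPsynCF6 and ATPsynbeta, a share near the 20.5% of all protein-coding genes. With every TSS within 1 kb, 7 of 17 parents (41.2%, 21.6 to 64.0) had a summit, against 27.6% of all protein-coding genes.

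The full replicate lists of 30000 regions gave the same order. A region was given to 5 of 17 paralogues (29.4%, 13.3 to 53.1) in at least 1 list and to 16 of 17 parents (94.1%, 73.0 to 99.0), against 61.0% of all protein-coding genes. A region in all 3 lists was given to 0 paralogues (up to 18.4%), 7 parents (41.2%) and 8 of 11 complex V genes (72.7%), against 33.2% of protein-coding genes. The 5 paralogues were UQCR-6.4L (best rank 9573, in replicate 1), UQCR-11L (9627, in replicate 3), ND-B14.5AL (21175, in replicate 3), COX7CL (21577, in replicate 2) and ND-20L (29287, in replicate 1). All of these ranks lay outside the top 6056.

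The paralogues also differed from the parents in length and neighbours. Their median gene length was 730 bp, against 1353 bp for the parents and 2166 bp for all protein-coding genes. A divergent neighbour stood at 3 of 17 paralogues (17.6%) and 10 of 17 parents (58.8%). The part of these features in the result was not tested.

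The members with other L symbols were described apart. COX6AL, COX6CL and ATPsynepsilonL, whose parents levy, cype and sun carry symbols outside the rule, had no region in any list, nor had ND-51L1, ND-51L2 and COX6AL2. COX7AL2 (FBgn0085201) was the exception among genes with L in this place of the symbol. Its signal value was 348 at rank 2815, on 2L from 2193416 to 2193835, and it ranked 1690, 2082 and 5404 in the replicates. Another region given to the gene ranked 3401 in replicate 3. The optimal summit lay 616 bp upstream of the nearest TSS, in an intron of a longer COX7AL2 transcript, farther from a TSS than that of any other member with a summit. The gene COX7A had none.

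**Figure D4:**
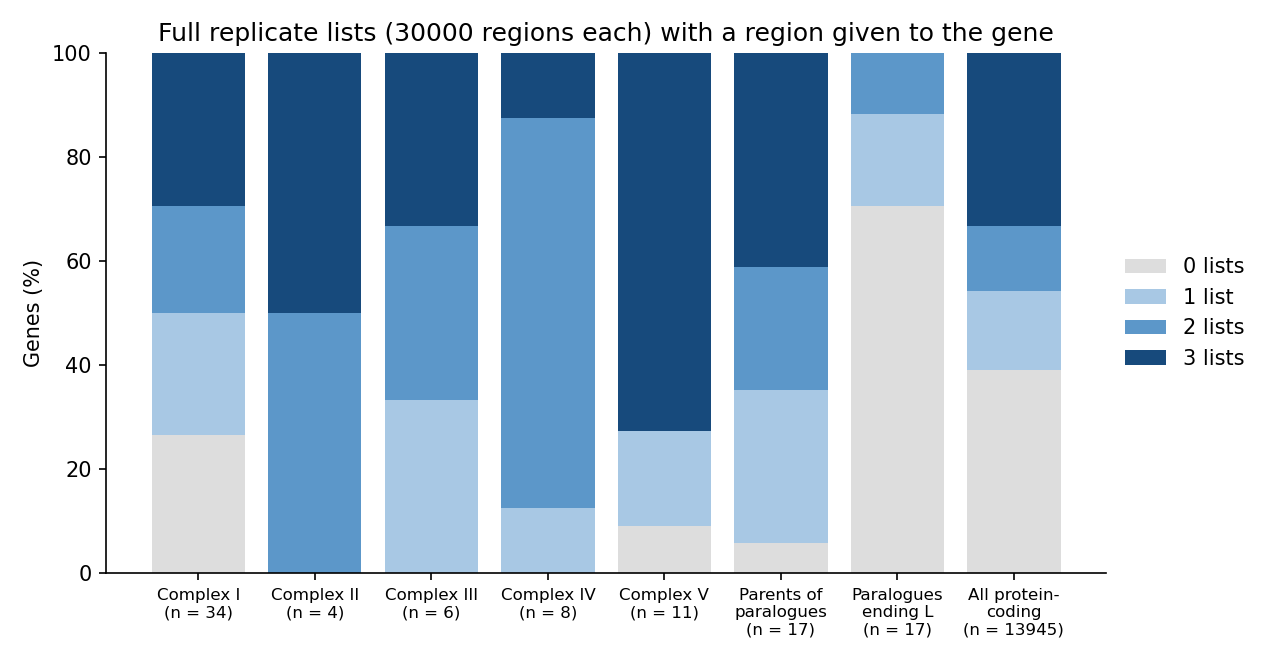
Share of genes (y axis, %) by the number of full replicate lists, 0 to 3, in which a region was given to the gene (shades), for each complex, the parents of paralogues, the paralogues ending in L and all protein-coding genes (x axis). Of the paralogues 70.6% had no region in any list, against 5.88% of their parents and 39.0% of all protein-coding genes.

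Genes of the same pathway outside the rule were counted from lists by role. Of 11 further subunits and carriers, 4 had a promoter summit: blw, the catalytic-head alpha subunit of ATP synthase (signal value 443, rank 1869), Cyt-c-p, the somatic cytochrome c (606, rank 1103, 954 bp from the TSS), levy, a complex IV subunit (237, rank 5074), and RFeSP, the Rieske protein of complex III (230, rank 5304). In replicates 1 to 3, blw ranked 3638, 1237 and 1789, and Cyt-c-p 995, 1102 and 1030. levy ranked 11666, 1987 and 2104, and RFeSP 3595, 8905 and 7403, so both missed the top regions of at least 1 replicate. Cyt-c1, Cyt-c-d, sun, ox, cype, Scox and Surf1 had none by the nearest TSS. With every TSS within 1 kb, Cyt-c-d, ox and cype had a summit too, which made 7 of 11. The shares over all protein-coding genes were 20.5% and 27.6% under these rules, for this list and the next 3.

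Of 16 genes of the tricarboxylic acid cycle and pyruvate entry, 7 had a promoter summit (43.8%, 23.1 to 66.8), and 8 with every TSS within 1 kb. The highest were Fum1 (1720, rank 138) and Idh3g, a subunit of isocitrate dehydrogenase (1383, rank 239, and ranks 236, 213 and 259 in the replicates). Pdhb of pyruvate dehydrogenase had 421 at rank 2028, and kdn, citrate synthase, had 319 at rank 3238. Ogdh of 2-oxoglutarate dehydrogenase (279, rank 3999), Mdh2, malate dehydrogenase (225, rank 5472), and Scsalpha1 of succinyl-CoA ligase (220, rank 5618) stood lower. Idh3g exceeded every member with a promoter summit. Fum1 did too, but its peak is the one beside ND-ASHI, to which the summit was nearer in replicates 2 and 3.

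Of 6 membrane carriers, sesB, the ADP/ATP translocase (258, rank 4496), and Mpcp2, a phosphate carrier (348, rank 2809), had a summit. sesB ranked 2188, 11932 and 5200, with replicate 2 outside the top 6056. Of 8 regulators of nuclear respiratory genes, ERR, the oestrogen-related receptor (365, rank 2601), and ewg, the fly relative of NRF1 (214, rank 5855), had one. The ranks of ewg were 6559, 8614 and 5466, so replicates 1 and 2 lay outside. With every TSS within 1 kb, 4 of 6 carriers and 4 of 8 regulators had a summit.

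Genes for the 2 kinds of ribosome were set beside the members by the same rule. The cytoplasmic RpL and RpS genes had a promoter summit at 76 of 92 (82.6%, 73.6 to 89.0), with a median signal value of 932. The mitochondrial mRpL and mRpS genes had one at 9 of 73 (12.3%, 6.62 to 21.8), or at 32 of 73 (43.8%, 33.0 to 55.2) with every TSS within 1 kb, and 58 of 73 (79.5%) had a divergent neighbour. Complex V was near the cytoplasmic ribosomal genes in its share but not in signal value. The rule that the summit must be nearest changed the mitochondrial ribosomal count more than that of the members.

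The promoters, 250 bp before to 50 bp after the TSS with most transcripts, were searched on both strands for 12 motifs. GGTCACAC, the core of Motif 1 bound by M1BP, was found at 14 of 63 single-copy or parent genes (22.2%, 13.7 to 33.9), against 7.79% of all protein-coding promoters. It stood at 12 of 42 of those without a summit (28.6%, 17.2 to 43.6). At members with a summit it stood at 2 of 22 (9.09%, 2.53 to 27.8), near the 10.8% of all protein-coding genes with a summit. The intervals overlap, and the difference was not tested. ACACTG, whose letters can overlap the end of GGTCACAC and did so in 11 of the 63, was found at 25 of 63 (39.7%) against 19.0%. At members with a summit it was found at 9 of 22 (40.9%), against 25.9% of all protein-coding genes with a summit. Within 100 bp of the TSS it was found at 4 of 22 (18.2%), against 19.9% of all protein-coding genes with a summit. The E-box CAGCTG was found at 21 of 63 (33.3%, 22.9 to 45.6) against 17.8%, and at similar shares with a summit (36.4% of 22 members) and without (31.0% of 42).

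ACANNTGT, the palindrome bound by Iroquois proteins in vitro, was found at 3 of the 22 members with a summit (13.6%), 14 of 63 single-copy or parent genes (22.2%) and 13.5% of all promoters. Within 100 bp to each side of the TSS the shares were 3 of 22 (13.6%), 15.9% of the 63 and 8.46% of all promoters. TATCGATA, the DRE bound by Dref, was found at 9 of 63 (14.3%) and 0 of 17 paralogues, against 9.24% of all promoters. GAGAG, bound by GAGA factor, was found at 10 of 63 (15.9%, 8.86 to 26.8), 8 of 17 paralogues (47.1%, 26.2 to 69.0) and 30.3% of all promoters. Within 100 bp to each side of the TSS it stood at 3 of 17 paralogues (17.6%), below the 22.9% of all promoters, so the order of paralogues and all promoters depends on the window. TATAAA, which shares letters with TTATATAA, was found at 38 of 63 (60.3%) against 45.6%. Within 100 bp to each side of the TSS it stood at 33.3% of the 63 against 28.9%, so the size of this difference depends on the window.

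Other motifs were rare. CCGGAAGT of Ets proteins, GCGCATGC of NRF1 and TTACGTAA were found at 0 of 88 member promoters (against 0.37%, 1.07% and 0.46% of all promoters). TTACATAA was found at 3 (3.41%, against 2.13%) and TTATATAA at 4 (4.55%, against 2.58%). Within 100 bp to each side of the TSS, TTACGTAA was found at 3 of 88 (3.41%) against 0.26% of all promoters. That window reaches farther downstream than the searched promoter, so these 3 matches reach past 50 bp downstream of the TSS. In the same window TTACATAA was found at 5 of 88 (5.68%) against 1.05%, and TTATATAA at 1 (1.14%) against 1.03%. The median GC content was 34.6% in promoters of single-copy or parent genes and 33.2% in those of paralogues, against 38.2% over all promoters. It moves with motifs rich in A and T, and its part in these shares was not tested.

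**Figure D5:**
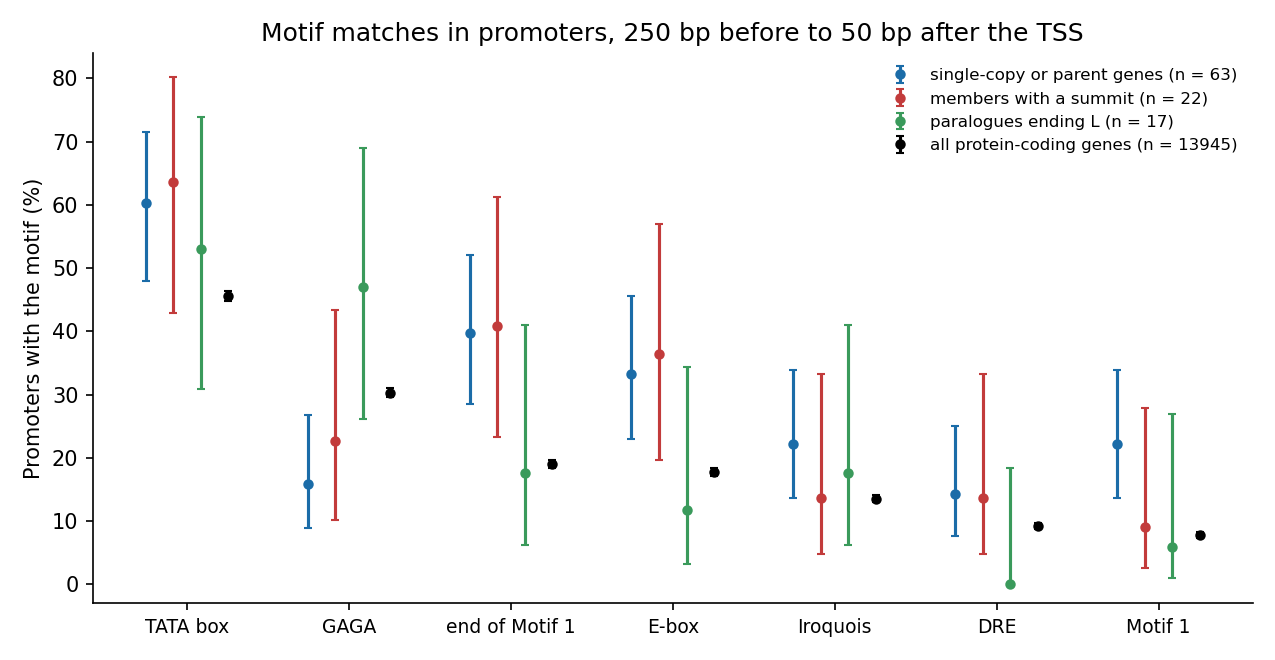
Share of promoters (y axis, %) with a match on either strand to each motif (x axis), for single-copy or parent genes, members with a summit, paralogues ending in L and all protein-coding genes; points are shares and bars Wilson 95% intervals. Motif 1 stands at 22.2% of single-copy or parent genes and 9.09% of members with a summit. GAGA stands at 47.1% of paralogues in this window and at 17.6% within 100 bp of the TSS.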

How the data were processed

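Peak lists of caup-eGFP ChIP-seq from 3 biological replicates were used on assembly dm6. Per the labels, fragments of 200 to 800 bp came from sonicated chromatin. Per the deposited text notes, regions were called from each replicate against a control alignment and on the pooled alignments, 30000 in each list, and the optimal set was kept by irreproducible discovery rate. Neither aligner nor caller nor threshold is named in these sources. Signal is the authors' value per region; the deposited summit offsets, another column, give positions.

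Genes and TSSs (23307 positions) came from Ensembl release 115 without transposable elements and pseudogenes, and sequence from RefSeq. Start codons and planted summits were checked, with Python 3.11.15, pandas 2.3.3 and numpy 2.4.6. Shares carry Wilson 95% intervals (scipy 1.17.1). With 1 group no test was made. Depth is unknown, so precision rests on replicate ranks.

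Members, lists and motifs were chosen with earlier results of these data known. Named genes were the 5 highest and the lowest per complex, members missing from a replicate's top regions, and all list genes with a summit. A replicate's value is that of its region over the optimal summit; the median percentile and distance are over members with a summit. Alternatives changed the window, the TSS rule, the peak set and the replicates.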

Additional observations from a re-analysis of the deposited data

How the results depend on the processing

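No paired analysis was possible because there was 1 group. The 22 members with a promoter summit became 21 and 23 with windows of 500 bp and 2 kb, 28 with every TSS within 1 kb and 22 with protein-coding TSSs only; the background share was 18.7%, 22.0%, 27.6% and 20.8%. With the 3028 strongest peaks the count was 12 for all members (13.6%, against 12.2% of all protein-coding genes). It was 11 for single-copy or parent genes, 2 for complex V and 0 for complex III. The median percentile there was 68.7 (52.0 as reported) and the median distance 66.5 bp. With every TSS within 1 kb that distance was 78.5 bp and complex II had 2. With only peaks in the top regions of all 3 replicates kept, complex V had 5 (45.5%) and complex III 0, against 14.4% of all protein-coding genes. With a top summit of each replicate within 100 bp, all members had 14 (15.9%, against 13.6% of all protein-coding genes). Under that rule single-copy or parent genes had 13, complex V 5 and complex III 0. Leaving out a replicate, which requires an optimal peak to lie in the top regions of the other 2, can only lower counts. It gave 17 members each time (19.3%, with 15.8%, 16.1% and 15.8% of all protein-coding genes), 16 single-copy or parent genes, 6 to 8 in complex I, 0 to 1 in complex III, 3 in complex IV, 5 to 6 in complex V, and a median percentile of 53.5 to 53.7. The strongest summit of UQCR-14 of complex III lies outside the top regions of replicate 3, and the gene counted only where those were not required. Another region given to UQCR-14 ranked 5425 in replicate 3. Summits in all 3 top lists rose from 68.2% to 95.5% with lists of 12112 regions. Counting ND-MNLL apart was chosen after seeing the data and gave 8 in complex I and 20 single-copy or parent genes. The paralogues ending in L stayed at 0 in the 10 alternatives computed for them, but most of these only remove summits and could not raise that count. Those that could were the window of 2 kb, every TSS within 1 kb and protein-coding TSSs only. In windows of 100 bp to each side of the TSS, shares over the 88 members left their Wilson intervals for TATAAA (30.7%, from 55.7%) and TTATATAA (1.14%, from 4.55%). The shares over all promoters fell too, to 28.9% from 45.6% for TATAAA and to 1.03% from 2.58% for TTATATAA. TTACGTAA went from 0 to 3.41%, and shares in smaller classes moved more (GAGAG at paralogues from 47.1% to 17.6%, ACACTG at members with a summit from 40.9% to 18.2%). Unknown depth limits what a missing region shows.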
